A study of Mus musculus with 16 samples.

Results

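This account covers 9 genes of mouse hippocampal CA1, out of 17986 that a deposited expression table lists for all libraries. They are the signal recognition particle genes Srp54a, Srp54b and Srp54c, the chemokine genes Ccl21a and Ccl21b with the predicted genes Gm13304 and Gm10591, the endosomal adaptor gene Wdfy1 and the pseudogene Gm3893. They were chosen by their gene symbols because they nearly separated the 2 genotype labels in these same libraries, or because they are paralogs of genes that did. The values that chose them are therefore given as a description, with no test. The members were tested for exploration against home cage, and genes outside the 9 were also tested between the labels. Of the 9, 8 passed the filter on low values (at least 1 FPKM in at least 2 libraries), as did 11892 genes in all, and Ccl21a did not.

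SRP54 is the GTPase subunit of the signal recognition particle, which binds the signal sequence of a nascent protein at the ribosome and brings it to the receptor on the endoplasmic reticulum. CCL21 is a chemokine made mainly by lymphatic endothelium and lymphoid stroma that guides cells bearing the receptor CCR7, and the mouse genome holds several near-identical copies of its gene. WDFY1 is a WD repeat and FYVE domain protein of early endosomes that is known to bring the adaptor TRIF to Toll-like receptors.

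CA1 had been cut by laser from frozen sections of 8 µm, from male mice of the C57Bl6 background aged 3 to 6 months that were kept in a pathogen-controlled unit. The genotype labels are wild type and N3 -/-, the latter for mice without the DNA glycosylase gene Neil3 by the title of the study. Home cage mice had no intervention, with 2 libraries of each genotype label. Exploration mice, with 3 libraries of each label, were put for 20 min a day, over 1 week, in an open field with sides of 50 cm, and tissue was taken from them 20 min after the final session. One library stood for 1 mouse, and 6 further samples of the learning condition were not analysed here. All samples carry the same strain label, so no comparison of strains was possible.

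Values are FPKM, read fragments scaled to the length of the transcript and to the total of the library, so levels can be compared between genes per length. They summed to between 405718 and 466701 per library, and 11114 to 11623 genes reached 1 FPKM. A coarse estimate from the spacing of low values put the depth at 18100000 to 19400000 fragments per library. Neil3 went against the labels: the 5 libraries with the N3 -/- label held 8.35 to 15.22 FPKM of it, and the 5 with the wild type label held 0 to 0.05 FPKM. The groups are therefore called WT-labelled and KO-labelled, and every direction below rests on those labels. The 5 CA1 pyramidal markers summed to 776 to 886 FPKM in WT-labelled and 694 to 908 FPKM in KO-labelled libraries, against 4.83 to 32.8 FPKM for 4 markers of CA3 and dentate gyrus over all libraries. The sum of the 4 astrocyte markers did not overlap between the labels, at 47.1 to 73.7 FPKM in WT-labelled and 76.2 to 103 FPKM in KO-labelled libraries. The part of these markers in the results below was not tested. In bulk tissue, fewer cells of a type and less RNA per cell cannot be told apart.

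The sequences come first, because near-identical copies decide how far the rows can be read apart. The 3 Srp54 genes lie in tandem on the forward strand of chromosome 12 (GRCm38, GENCODE), Srp54a at chr12:55080262-55115367, Srp54b at chr12:55155104-55189573 and Srp54c at chr12:55230168-55263836. Each has 16 exons and 1512 coding bases before the stop codon. The coding sequences of Srp54a and Srp54b were identical, and Srp54c differed from both at 6 bases (99.6% identity). Counted from 1 at the first coding base, with the base of Srp54a first, the substitutions were T501C, T945C, G946A, T965G, A1197T and G1249A, and 4 of the 6 codons they touch encode another residue. The 50-base stretch below holds 3 of the 6, which are in capitals, and it shows how little sequence sets Srp54c apart.
Srp54a: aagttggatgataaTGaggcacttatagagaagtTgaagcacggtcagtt
Srp54b: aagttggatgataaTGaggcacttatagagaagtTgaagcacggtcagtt
Srp54c: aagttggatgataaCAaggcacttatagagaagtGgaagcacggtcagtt
Over whole transcripts, 27.9% of the 100-base windows of Srp54a occurred in no other gene's transcripts of the GENCODE set, against 10.5% for Srp54c and 1.6% for Srp54b. A window has the length of 1 read of a pair, so most single reads from these genes match at least 1 other copy.

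The Ccl21 genes lie in a repeated region of chromosome 4, with Gm13304 at chr4:42114817-42115917, Ccl21b at chr4:42255767-42256432 and Gm10591 at chr4:42612195-42612860 on the forward strand, and Ccl21a at chr4:42772860-42773993 on the reverse strand. All 4 have 4 exons and 399 coding bases. The coding sequences of Ccl21b, Gm13304 and Gm10591 were identical, and Ccl21a differed from them at 2 bases, T84A and C194T with the base of Ccl21a first, of which 1 changes the residue. The 30-base stretches below are centred near these bases, in capitals, and are shown because they are the only coding differences in the family.
Ccl21a, around base 84: agtgatggagggggTcaggactgctgcctt
Ccl21b, Gm13304 and Gm10591, around base 84: agtgatggagggggAcaggactgctgcctt
Ccl21a, around base 194: ggcaatcctgttctCaccccggaagcactc
Ccl21b, Gm13304 and Gm10591, around base 194: ggcaatcctgttctTaccccggaagcactc
In the GENCODE transcripts no 100-base window was unique to Ccl21b, Gm13304 or Gm10591 (0%), while 49.7% of those of Ccl21a were. All windows of Ccl21b and of Gm10591 occurred in Gm13304 and in the further copy Gm21541. Of the windows of Gm13304, 41.1% occurred in Ccl21b and 100% in Gm21541. The GENCODE transcripts of Ccl21b and Gm10591 hold only the coding bases and the stop codon (402 bases), and that of Gm13304 is longer (837 bases). RefSeq gives longer spans to Ccl21b (chr4:42173120-42256825) and Gm10591 (chr4:42612123-42613253), and bases outside the GENCODE transcripts were not compared. Whether the GENCODE lengths entered the deposited FPKM was not tested. The 300-base RefSeq promoter windows of Gm13304 and Gm10591 (GRCm38.p6) differed at 0 bases. Gm3893, at chr4:42091207-42092287, lies beside this region and is a transcribed pseudogene in RefSeq. Wdfy1, at chr1:79702262-79776143 on the reverse strand, stands apart from these families, as 100% of the windows of both its transcripts were unique to it.

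Srp54c was present in all WT-labelled libraries and nearly absent from all KO-labelled ones. It stood at 42.52 and 39.44 FPKM in the WT-labelled home cage libraries and at 43.44, 42.73 and 40.36 FPKM after exploration. In the KO-labelled libraries it was listed at 0 in both home cage libraries and at 0.18, 0.3 and 0.07 FPKM after exploration. The labels did not overlap, and within the WT-labelled libraries the 2 environments did. The home cage and exploration means of the WT-labelled groups were 40.98 ± 2.18 (SD, n = 2) and 42.18 ± 1.61 FPKM (SD, n = 3), which lie within 1 SD of each other.

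Srp54a and Srp54b, which encode the same protein sequence as each other, differed far less between the labels. Srp54a was at 17.95 and 19.43 FPKM in the WT-labelled home cage libraries and 17.51, 17.95 and 17.87 FPKM after exploration. In the KO-labelled libraries it was at 12.41 and 12.26 FPKM in the home cage and 17.24, 15.95 and 13.91 FPKM after exploration. All KO-labelled libraries were lower than all WT-labelled ones, with a ratio of the WT-labelled to the KO-labelled mean of 1.52 in the home cage and 1.13 after exploration. Srp54b moved the other way, from 32.03 to 36.19 FPKM over the WT-labelled libraries (median 34.56) and from 36.2 to 40.87 FPKM over the KO-labelled ones (median 37.45). The highest WT-labelled and the lowest KO-labelled library of Srp54b differed by less than the SD within either label (1.54 and 1.76 FPKM).

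Because most of their sequence is shared, the copies were also summed. The sum of Srp54a and Srp54b, computed after the single values were seen, was 52.54 ± 1.75 FPKM (SD, n = 5) in WT-labelled and 52.22 ± 2.45 FPKM (SD, n = 5) in KO-labelled libraries, with overlapping ranges of 49.98 to 54.06 and 49.71 to 54.78 FPKM. The sum of these 2 copies therefore did not separate the labels. Srp54a did, while Srp54b did so only at 36.19 against 36.2 FPKM, at the last digit of the rounded values. The sum of all 3 copies was 92.97 ± 0.658 and 95.09 ± 0.713 FPKM in the WT-labelled home cage and exploration groups, and 49.8 ± 0.12 and 54.03 ± 1.37 FPKM in the KO-labelled ones (SD, n = 2 and 3). The WT-labelled mean of this sum was higher by 1.87 times in the home cage and 1.76 times after exploration. Srp54c held 44.1% of it in the WT-labelled home cage libraries and 44.4% after exploration, against 0% and 0.343% in the KO-labelled groups. Srp54b held 35.8% and 37% in the WT-labelled groups and 75.2% and 70.6% in the KO-labelled ones.

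**Figure D1:**
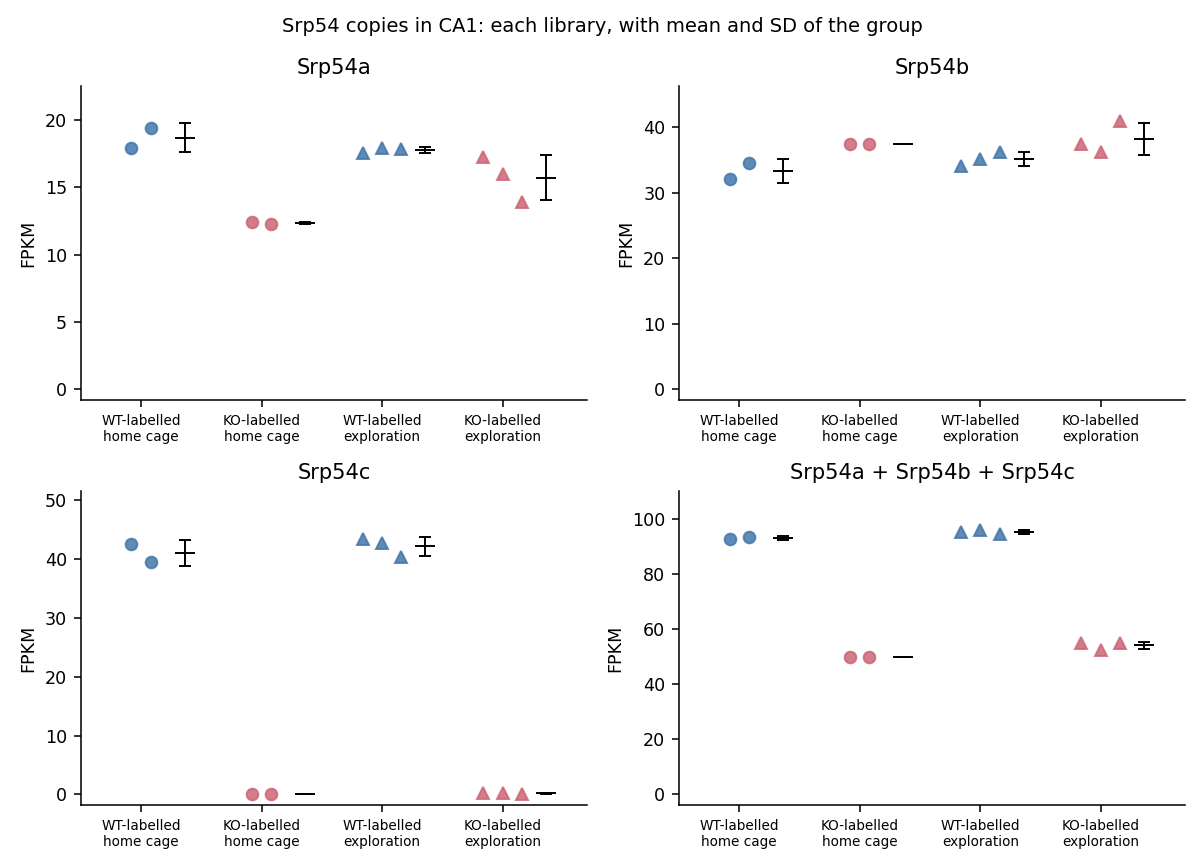
FPKM of Srp54a, Srp54b, Srp54c and their sum in each library (circles, home cage; triangles, exploration; blue, WT-labelled; red, KO-labelled), with the group mean and SD in black beside the points. Srp54c separates the labels at 39.44 FPKM and above against 0.3 FPKM and below, and the sum separates them at 92.5 FPKM and above against 54.85 FPKM and below.

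The Ccl21 rows showed the opposite split, with signal in the KO-labelled libraries and almost none in the WT-labelled ones. Ccl21b was listed at 0 in 4 of the 5 WT-labelled libraries and at 0.07 FPKM in the other. In the KO-labelled libraries it was at 26.76 and 26.14 FPKM in the home cage and at 8.41, 14.62 and 8.26 FPKM after exploration. The 2 KO-labelled environments did not overlap, and all KO-labelled libraries were above all WT-labelled ones. Ccl21a, the copy whose product carries the other residue, was listed at 0 in 8 of the 10 libraries and reached 0.2 FPKM in WT-labelled home cage library 1 and 0.31 FPKM in KO-labelled home cage library 2.

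Gm13304 and Gm10591 had the same value as each other in all 10 libraries, so they cannot be read as 2 separate measurements. Whether reads shared by both were split between the rows or counted in each is not given. Both were listed at 0 in all 5 WT-labelled libraries. In the KO-labelled libraries they were at 1.49 and 0.74 FPKM in the home cage and at 7.21, 2.17 and 2.98 FPKM after exploration. Ccl21b was thus the highest Ccl21 row in each KO-labelled library, but its lead was narrow in exploration library 1 (8.41 against 7.21 FPKM). Among all genes of the table that reached 1 FPKM, 9 in 4 sets had such identical rows, among them the chemokine rows Ccl27b, Gm13306 and LOC100861978 of the same chromosome region and the SRP RNA genes Rn7s1 and Rn7s2.

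The sum of the 4 Ccl21 rows was 29.74 and 27.93 FPKM in the KO-labelled home cage libraries and 22.83, 18.96 and 14.22 FPKM in the KO-labelled exploration libraries. It was at most 0.2 FPKM in the WT-labelled libraries. If the same reads were counted for Gm13304 and for Gm10591, this sum holds them more than once and understates the share of Ccl21b. Ccl21b held 91.8% ± 2.55 (SD, n = 2) of the sum in the KO-labelled home cage libraries and 57.3% ± 20.1 (SD, n = 3) after exploration, where single libraries ranged from 36.8% to 77.1%. Gm13304 and Gm10591 each held 3.83% ± 1.67 in the home cage and 21.3% ± 10.1 after exploration. The share of Ccl21b thus varied widely among the exploration libraries and little between the 2 home cage libraries.

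**Figure D2:**
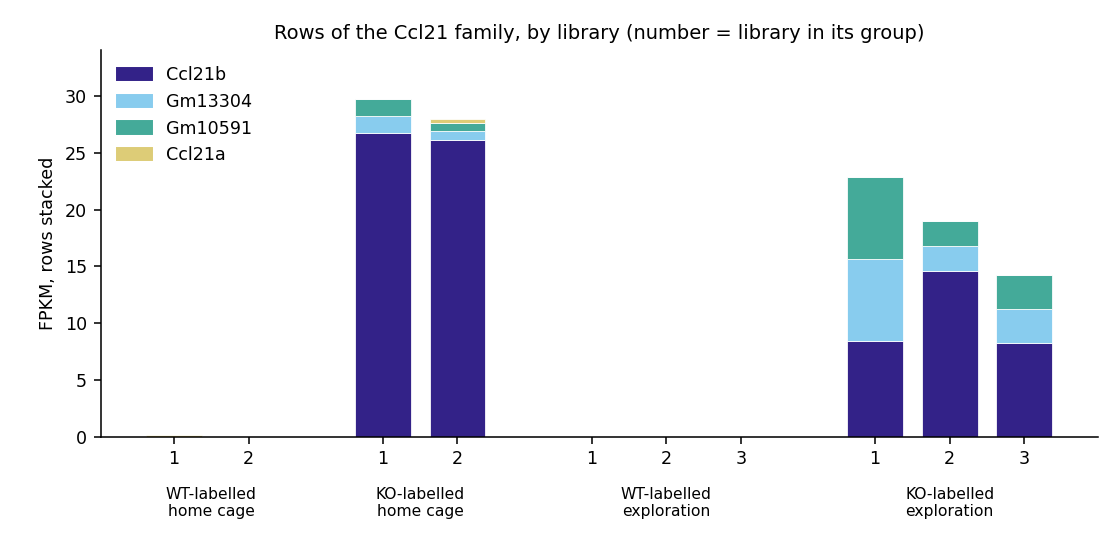
FPKM of Ccl21b, Gm13304, Gm10591 and Ccl21a stacked for each library, with library numbers under the bars. The sum lies between 14.22 and 29.74 FPKM in the KO-labelled libraries and at most at 0.2 FPKM in the WT-labelled ones, and the share of Ccl21b falls from 90% or more in the home cage to 36.8% in exploration library 1.

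Wdfy1, whose transcripts share no read-length window with another gene, was lower in every KO-labelled library. It was at 8.51 and 9.58 FPKM in the WT-labelled home cage libraries and 8.12, 7.93 and 7.82 FPKM after exploration. The KO-labelled values were 2.38 and 2.87 FPKM in the home cage and 1.8, 1.74 and 1.11 FPKM after exploration. Unlike Srp54c it stayed measurable in the KO-labelled libraries, with a WT-labelled mean 3.45 times higher in the home cage and 5.13 times higher after exploration.

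Gm3893 was low in WT-labelled libraries, at 0.56 and 0.61 FPKM in the home cage and 0.28, 0.32 and 0.29 FPKM after exploration. It was at 5.79 and 10.37 FPKM in the KO-labelled home cage libraries and at 2.49, 2.95 and 1.9 FPKM after exploration. The KO-labelled mean was 13.8 times the WT-labelled one in the home cage and 8.25 times after exploration. All 4 groups of this pseudogene stood apart from each other, in the order KO-labelled home cage, KO-labelled exploration, WT-labelled home cage and WT-labelled exploration.

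**Figure D3:**
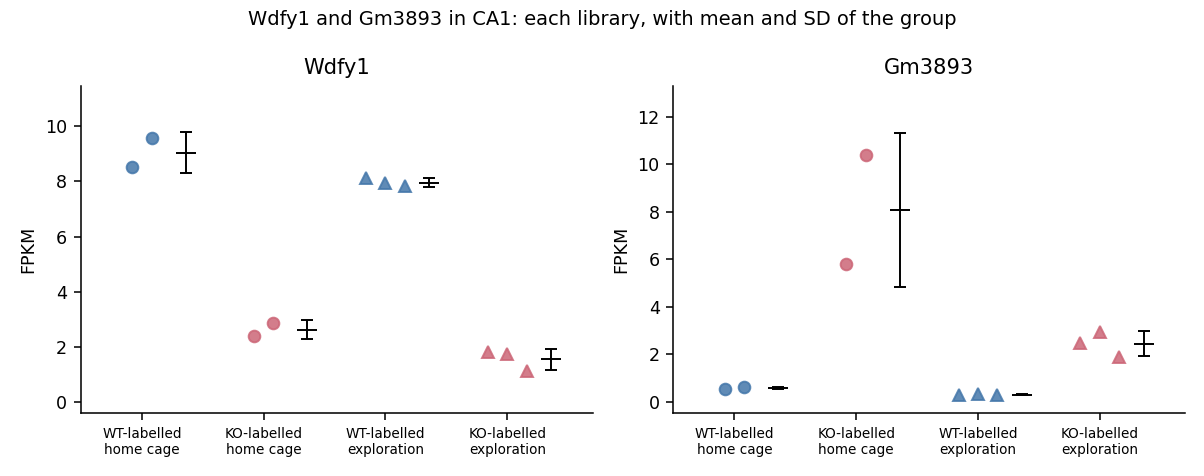
FPKM of Wdfy1 and Gm3893 in each library (circles, home cage; triangles, exploration; blue, WT-labelled; red, KO-labelled), with the group mean and SD in black. Wdfy1 is at 7.82 FPKM or more in WT-labelled and at 2.87 FPKM or less in KO-labelled libraries, while Gm3893 is at 0.61 FPKM or less in WT-labelled and at 1.9 FPKM or more in KO-labelled libraries.

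All 8 members that passed the filter had labels that did not overlap over 5 against 5 libraries, where 2.27% of all tested genes had none. The members were selected on this contrast, so the count shows nothing about them. Across the 10 libraries the member values on the log2(FPKM + 1) scale were related to unequal degrees, with the largest Pearson r between genes of different families at 0.96 for Srp54c and Wdfy1, -0.97 for Srp54c and Ccl21b and 0.95 for Ccl21b and Gm3893. Other pairs were weaker, such as Srp54a and Srp54b (-0.65), Srp54b and Gm3893 (0.55), Gm13304 and Gm3893 (0.55) and Srp54a and Gm13304 (-0.40). These are descriptions over 10 libraries that share the labels and the tables, and they carry no test.

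The genes outside the 9 whose values ran most like theirs were then listed by Pearson r over the same 10 libraries. For Srp54c they were 1700047I17Rik2 (r = 0.98), Nnt (0.97), Wdr17 (0.97) and Lor (0.96). For Wdfy1 they were 1700047I17Rik2 again (0.98), Vegfc (0.96), Ino80b (0.96) and Hnrnpm (0.96). For Ccl21b they were Neil3 itself (0.98), BC023829 (0.98), Smox (0.95) and Lrrn1 (0.94), and for Gm3893 they were Fam205a2 (0.94), BC023829 (0.94), Ids (0.93) and Lrrn1 (0.93). Nnt, which encodes the mitochondrial transhydrogenase that makes NADPH, was at 8.49 to 10.14 FPKM in WT-labelled and 4.05 to 5.44 FPKM in KO-labelled libraries. Of the genes named here, 1700047I17Rik2 on chromosome 12 and Fam205a2 on chromosome 4 lie beside members.

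Neighbouring genes were compared between the labels in a limma fit over all 11892 genes, with p-values adjusted over all of them by the Benjamini-Hochberg method and a call at an adjusted p under 0.05. For each chromosomal group of members the 10 nearest tested genes on each side and those between the members were taken, 64 in all. Averaged over environments, 2 were called as higher with the KO label and 2 as lower, where 2.13% of all tested genes were called. Their median log2 difference was -0.03, beside -0.01 over all tested genes. In the home cage 4 of 64 were called (3.57% of all genes) and after exploration 1 of 64 (0.597% of all genes).

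The 2 called genes that lie between members had the larger differences averaged over environments, while in the home cage Ap1s3 (-0.77) and Serpine2 (0.73) differed by about as much as 1700047I17Rik2 (-0.75). 1700047I17Rik2, named Fam177a2 in RefSeq and placed between Srp54b and Srp54c, was at 16.42 and 17.19 FPKM in the WT-labelled home cage libraries and 17.22, 16.15 and 16.15 FPKM after exploration. Its KO-labelled values were 9.63 and 9.58 FPKM in the home cage and 10.16, 9.03 and 8.1 FPKM after exploration, with no overlap (log2 difference -0.77, SE 0.07, limma adjusted p 0.000111). Fam205a2, between Ccl21b and Gm10591, was at 0.65 to 0.97 FPKM in WT-labelled and 1.08 to 3.49 FPKM in KO-labelled libraries (log2 difference 0.67, SE 0.10, limma adjusted p 0.0104). It passed the filter of 1 FPKM only through the KO-labelled libraries, so its call between the labels is given as a description. In the exploration libraries alone Fam205a2 did not overlap either but was not called (log2 difference 0.29, SE 0.13, limma adjusted p 0.273). The 10 tested neighbours on each side of the Srp54 genes and of the Ccl21 genes had no further call averaged over environments.

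Beside Wdfy1, the clathrin adaptor gene Ap1s3 was lower in the KO-labelled libraries (log2 difference -0.48, SE 0.10, limma adjusted p 0.0411), and Serpine2, which encodes the protease inhibitor nexin-1, was higher (0.41, SE 0.08, limma adjusted p 0.0279). Both were called in the home cage and not after exploration. Ap1s3 was at 4.89 and 4.78 against 2.69 and 2.18 FPKM there, and overlapped after exploration. Serpine2 was at 19.52 and 24.76 against 36.17 and 38.3 FPKM in the home cage, and its exploration libraries overlapped as well. With 1 library left out at a time, the averaged call of Ap1s3 held only without KO-labelled exploration library 1 or 3, and otherwise had an adjusted p of 0.0504 to 0.143. That of Serpine2 was lost without WT-labelled home cage library 1, either KO-labelled home cage library, WT-labelled exploration library 1 or 3, or KO-labelled exploration library 2 (adjusted p 0.0501 to 0.119). For both, the difference between the environments in the label contrast was not called (adjusted p 0.174 and 0.0695).

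**Figure D4:**
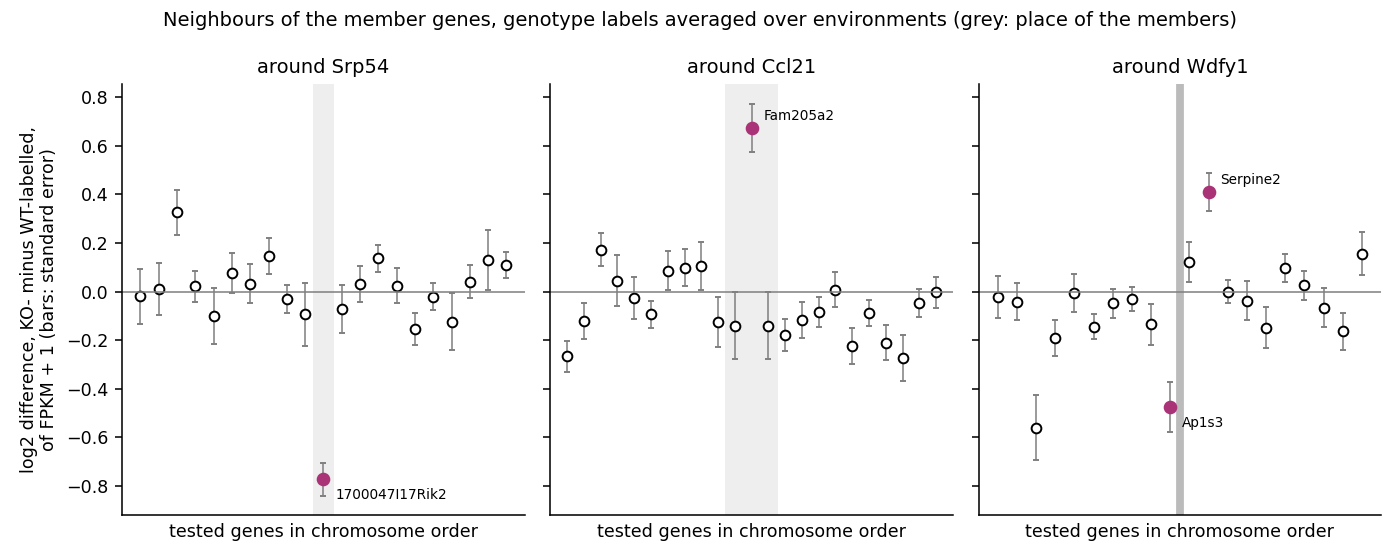
Log2 difference between KO-labelled and WT-labelled libraries, averaged over environments, for the tested genes around the Srp54, Ccl21 and Wdfy1 genes in chromosome order, with standard errors. Filled points were called by limma, and grey marks where the members lie; 1700047I17Rik2 (-0.77) and Fam205a2 (0.67) stand inside the marked places.

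No gene of the same pathways was called between the labels averaged over environments, where 2.13% of all tested genes were called. In lists this short, 0 calls lie near that share and are not read as a result about the pathways. Of 25 tested genes for targeting to and passage into the endoplasmic reticulum, such as the other SRP proteins, the SRP receptor and the Sec61 channel, 0 were called by limma (1 at an unadjusted p under 0.05), with a median log2 difference of 0.03 beside -0.01 over all tested genes. The SRP RNA gene row Rn7s1 was at 15.85 to 29.71 FPKM in WT-labelled and 21.96 to 45.24 FPKM in KO-labelled libraries, which overlapped. Of 7 tested genes of the Ccl21 axis, which held chemokines and genes of the same region, 0 were called (0 unadjusted). CCR7, the receptor of CCL21, was at most 0.09 FPKM in any library, and Ccl19, the other CCR7 ligand, at most 0.72 FPKM. Of 17 tested genes of Toll-like receptor signalling, FYVE domain proteins and endosomes, 0 were called (1 unadjusted), with a median of 0.00 beside -0.01 over all genes.

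Markers of the cells known to make CCL21 were low. Of 5 markers of lymphatic endothelium and lymphoid stroma, 1 reached 1 FPKM in any library (Pdpn, up to 2.77 FPKM), and their sum was 0.96 to 2.36 FPKM in WT-labelled and 2.17 to 3.27 FPKM in KO-labelled libraries. The lymphatic marker Lyve1 was at 0.02 to 0.11 FPKM and Madcam1 at 0 to 0.08 FPKM, beside a Ccl21 sum of 14.22 FPKM or more in the KO-labelled libraries. Of the 4 T cell markers 3 were in the table, at most 0.09 FPKM each.

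Exploration was then compared with the home cage within each label, a contrast that did not choose the members. The table holds the 2 environments as separate blocks, and what is due to the block and what to the environment cannot be told apart. In the WT-labelled libraries 0 of the 8 members were called by limma (0 at an unadjusted p under 0.05), where 6.31% of all tested genes were called. Little can be read from that count, since Gm13304 and Gm10591 were listed at 0 there and Ccl21b and Gm3893 were under 1 FPKM, so that these 4 passed the filter only through the KO-labelled libraries. Srp54c passed it only through the WT-labelled ones. In the KO-labelled libraries 3 rose and 3 fell, or 6 of 8 rows, where 28.6% of all genes were called. The rises include the identical rows Gm13304 and Gm10591, so these 6 calls are not 6 separate results. Both rows also passed the filter only through the KO-labelled exploration libraries. With only the KO-labelled groups fitted 4 members were called, and 14.6% of all genes. Averaged over both labels 3 of 8 fell and 0 rose, where 31.9% of all genes were called, so that share was near the background. Ccl21b and Gm3893, among these 3, were under 1 FPKM in the WT-labelled libraries, so their averages mainly repeat the KO-labelled change. The count in the KO-labelled libraries rested on KO-labelled home cage library 2: without it 2 of 8 were called (Ccl21b and Gm3893), and 4.27% of all genes. That library also stood apart in the sum of the meningeal and fibroblast markers, at 28.2 FPKM there and at most 3.18 FPKM in the others. Only 1 of these 4 markers reached 1 FPKM, Dcn (up to 27.2 FPKM). Lum, Col1a1 and Slc6a13 reached at most 0.37, 0.25 and 0.46 FPKM in any library. Other marker sums also separated the KO-labelled environments. The sum of the CA3 and dentate markers was 4.83 and 5.49 FPKM in the home cage and 28.6, 27.1 and 32.8 FPKM after exploration. It was nearly all Bok (4.53 to 32.4 FPKM over all libraries). Prox1, Dsp and Iyd reached at most 0.5, 0.01 and 0.18 FPKM in any library. Interneuron markers were at 154 and 165 FPKM against 197, 185 and 227 FPKM, and blood markers at 109 FPKM or less against 115 FPKM or more. The part of these markers in the changes below was not tested.

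Among KO-labelled libraries Ccl21b fell by 1.31 on the log2(FPKM + 1) scale (SE 0.19, limma adjusted p 0.00164), and the exploration mean was 0.394 times that of the home cage. Gm13304 and Gm10591 rose by 1.17 (SE 0.31, limma adjusted p 0.017), from 1.115 ± 0.53 to 4.12 ± 2.71 FPKM (SD, n = 2 and 3). The home cage libraries stood at 1.49 and 0.74 FPKM, so both rows passed the filter only through the exploration libraries. Their call between the environments is therefore given as a description. With only the KO-labelled groups fitted it had a limma adjusted p of 0.0473. These rows share their whole coding sequence with Ccl21b. Their rise was lost when KO-labelled home cage library 2 was left out (log2 difference 0.92, adjusted p 0.189). In the sum of the 4 Ccl21 rows, with Gm13304 and Gm10591 both counted, the 2 home cage libraries lay above the 3 exploration libraries. The sum fell by 0.62 (SE 0.16, limma adjusted p 0.0163). This call was lost when KO-labelled home cage library 1 (-0.58, adjusted p 0.0635) or library 2 (-0.67, adjusted p 0.102) was left out, or with a pseudocount of 0.1 (adjusted p 0.242).

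Among KO-labelled libraries Gm3893 fell by 1.36 (SE 0.19, limma adjusted p 0.00163), and its exploration mean was 0.303 times that of the home cage. Averaged over the labels it fell by 0.83 (SE 0.14, limma adjusted p 0.00168). This mainly repeats the KO-labelled change, since Gm3893 was under 1 FPKM in the WT-labelled libraries. In the WT-labelled libraries its 2 groups did not overlap either, at 0.56 and 0.61 against 0.28 to 0.32 FPKM, but the difference was not called (log2 difference -0.29, SE 0.19, limma adjusted p 0.404). Gm3893 in the KO-labelled libraries was called under all alternatives and with any 1 library left out.

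Among KO-labelled libraries Wdfy1 fell by 0.52 (SE 0.13, limma adjusted p 0.0151), to 0.59 times the home cage mean, and averaged over the labels it fell by 0.34 (SE 0.09, limma adjusted p 0.018). In the WT-labelled libraries its log2 difference was -0.16 (SE 0.13, limma adjusted p 0.493), with the exploration libraries below both home cage libraries. The first call was lost when KO-labelled home cage library 2 was left out (-0.42, adjusted p 0.16) or those 2 groups were fitted alone (adjusted p 0.0681). The averaged call was lost without WT-labelled home cage library 2 (adjusted p 0.0805) or KO-labelled home cage library 2 (adjusted p 0.0829), and with quantile normalization (-0.22, adjusted p 0.0527).

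Srp54a rose in the KO-labelled libraries by 0.32 (SE 0.09, limma adjusted p 0.0239), and it was not called without any 1 of 4 KO-labelled libraries (adjusted p 0.0563 to 0.149). Srp54b had a log2 difference of 0.02 (SE 0.08, limma adjusted p 0.84) and Srp54c one of 0.24 (SE 0.10, limma adjusted p 0.1) there. The sum of the 3 copies had a log2 difference of 0.12 (SE 0.06, limma adjusted p 0.183), so the family as a whole was not called.

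**Figure D5:**
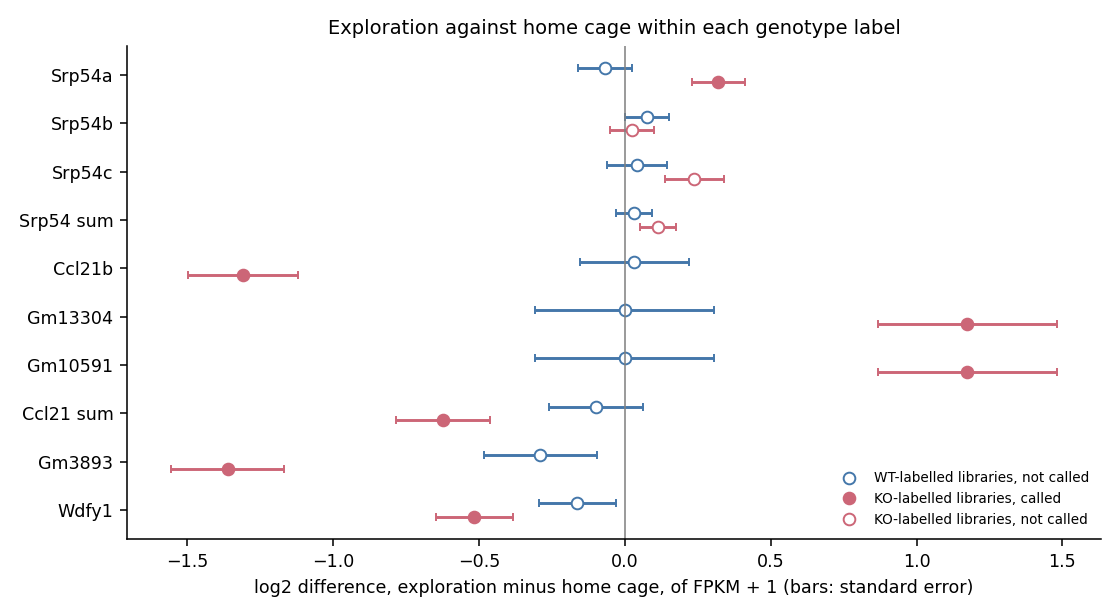
Log2 difference between exploration and home cage on the log2(FPKM + 1) scale for the 8 members and the 2 paralog sums, in WT-labelled (blue) and KO-labelled (red) libraries, with standard errors. Filled points were called by limma; Ccl21b (-1.31) and Gm13304 (1.17) lie on opposite sides of 0 in the KO-labelled libraries, with their sum at -0.62.

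The difference between the labels in the exploration response was fitted as an interaction. It was called for 1 of the 8 members, Ccl21b (log2 difference of the responses -1.34, SE 0.27, limma adjusted p 0.0496), where 0.875% of all tested genes were called. The WT-labelled libraries of Ccl21b stood at 0 to 0.07 FPKM, so no response could be measured there, and the value repeats the change in the KO-labelled libraries. It does not show that the responses of the labels differ. The call lies at the threshold and was lost under 11 of the 16 alternatives run for it (adjusted p up to 0.223), among them the omission of any 1 WT-labelled library, of KO-labelled home cage library 2 or of KO-labelled exploration library 3. The sum of the Ccl21 rows gave -0.53 (SE 0.23, limma adjusted p 0.287), Gm3893 -1.07 (SE 0.27, limma adjusted p 0.0789), Gm13304 1.17 (SE 0.44, limma adjusted p 0.201) and Srp54a 0.39 (SE 0.13, limma adjusted p 0.157). Gm13304 was likewise at 0 in the WT-labelled libraries, and for the others the responses of the labels were not shown to differ.

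The pathway genes were counted for exploration in the KO-labelled libraries as well. Of the 25 genes of endoplasmic reticulum targeting 6 rose and 0 fell (median log2 difference 0.17, beside -0.04 over all genes). They were the SRP proteins Srp9 (log2 difference 0.34, SE 0.09, limma adjusted p 0.021) and Srp19 (0.44), the channel subunits Sec61a1 (0.29), Sec61b (0.56) and Sec61g (0.61), and Ssr4 (0.39) of the translocon-associated complex. Of the 7 Ccl21 axis genes 1 rose and 2 fell, among them Dctn3 (0.23), which encodes a dynactin subunit, and Galt (-0.32), which encodes an enzyme of galactose metabolism. Of the 17 Toll-like receptor, FYVE and endosome genes the autophagy gene Becn1 rose (0.24), and Traf3 (-0.55), an adaptor of Toll-like receptor signalling, and Wdfy3 (-0.39) fell. Beside 28.6% of all genes called, 6 of 25, 3 of 7 and 3 of 17 are not read as particular to these lists. In the WT-labelled libraries Sec61g rose (0.57), Zfyve16, which encodes an endosomal FYVE protein, fell (-0.58), and 0 of the Ccl21 axis genes were called.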

How the data were processed

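RNA was sequenced as paired reads of 100 bases on a BGISEQ-500 instrument, per the labels' protocols. The authors deposited FPKM values per gene and library in 2 blocks, 1 for exploration (19156 genes) and 1 for the home cage (18257 genes), and 0 value columns were without a sample. The submitters' processing notes name HISAT, StringTie, GATK, Bowtie2 and RSEM and the builds GRCm38 and mm10, with no role, version or order. The use of strand and of multi-mapped reads is not given in the sources used here.

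The blocks were joined on the gene ID (17986 genes). limma 3.58.1 in R 4.3.3 was fitted to log2(FPKM + 1) of the genes that reached 1 FPKM in 2 or more libraries, with 1 mean for each of 4 groups over 10 libraries, a prior variance that follows the level and Benjamini-Hochberg adjustment (call at 0.05). On this scale the change of low genes is understated. The code was tested on simulated data. With 2 or 3 libraries a group, p-values rest on a spread pooled over the 4 groups and on the prior variance, and cover these mice only. For Gm13304 and Gm10591, at 0 in the WT-labelled libraries, the pooled spread includes groups without any. Python 3.11.15 computed shares, sums and sequence comparisons on GENCODE transcripts and RefSeq tables of GRCm38, the build in the notes, and 11869 of 11892 tested genes matched a RefSeq gene ID.

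The members and the gene lists were chosen with earlier results of these data known. Named genes were the 9 members, Neil3, the 4 genes most like each of Srp54c, Ccl21b, Wdfy1 and Gm3893, and up to 4 called genes of each list; Rn7s1, Ccr7, Ccl19, Ccl27b, the marker genes and the pathway genes called after exploration were named outside that rule, with their values seen. The alternatives tried were size factors, quantile normalization, no variance trend, a filter at 5 FPKM or none, 0.1 as the pseudocount, only the groups compared, summed paralog rows and each library left out. The 6 learning condition samples were not analysed here. The values of 1 called list gene are not reported here.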

Additional observations from a re-analysis of the deposited data

Results flagged for a closer look

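The limma interaction for Ccl21b, the exploration change with the KO label minus that with the WT label, was past the threshold (log2 -1.341, SE 0.27, limma adjusted p 0.0496). With the KO label Ccl21b fell from 26.45 ± 0.438 (SD, n = 2) to 10.43 ± 3.63 FPKM (SD, n = 3). The WT-labelled libraries were at 0 to 0.07 FPKM, so no response could be measured in them, and the gene passed the filter only through the KO-labelled ones. The value therefore does not show that the labels respond differently, and 11 of the 16 alternatives lost the call. Gm13304 and Gm10591, with the same coding sequence, ran the other way with the KO label, and the sum of the family gave -0.53 (limma adjusted p 0.287).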

How the results depend on the processing

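No paired analysis was possible because the numbers in the sample titles name animals or tubes and the columns of the compared groups share no replicate number that marks a common litter, batch or day. Of the exploration counts, 0 members in WT-labelled libraries was given by all alternatives. The 6 members called in KO-labelled libraries became 3 with paralog rows summed, which leaves fewer rows to call. They became 4 with a filter at 5 FPKM, which Gm13304 and Gm10591 did not pass, while the other calls stayed. With only the groups compared 4 were called. The 6 calls became 5 to 7 with each exploration library left out. The omission of KO-labelled home cage library 2 is given above. The 3 called averaged over labels became 2 to 5 with each library left out. The 1 called for the difference between labels became 0 with summed paralog rows, no variance trend, a filter at 5 FPKM or none, or 0.1 as the pseudocount, and 0 to 2 with each library left out. The 4 neighbour calls became 2 with no filter, 2 with a filter of 5 FPKM, 7 with quantile normalization and 2 to 4 with each library left out. The 3 pathway lists stayed at 0 called genes throughout. No direction reversed. The log2 genotype differences moved with a pseudocount of 0.1, to -7.99 for Srp54c, 7.23 for Ccl21b, 4.37 for Gm13304 and Gm10591, -2.03 for Wdfy1 and 3.09 for Gm3893; a smaller pseudocount by its construction widens differences from values near 0. The cause of the other changes was not tested. Values under about 1 FPKM, among them Ccl21a, are limited by depth and by rounding to 2 decimals.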
